A study of Mus musculus with 2 samples.

Results

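The genes described here encode the machinery that licenses DNA replication origins, opens the double helix and copies it at the fork. They were chosen by name and role, as the subunits of 11 complexes or steps, though earlier results of these data were known. There are 39 of them among 43346 mouse genes in the table, and all 39 were found by symbol. They are Mcm2 to Mcm7 and Mcm10, Orc1 to Orc6, Cdc6, Cdt1, Gmnn, Cdc45, Gins1 to Gins4, Pcna, Rfc1 to Rfc5, Pola1, Pola2, Prim1, Prim2, Pold1, Pold2, Pole, Rpa1, Rpa2, Rpa3, Fen1 and Lig1.

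RNA was measured in whole thymus at postnatal day 0 in mice of strain B6NCrl, whose sex was not collected. There was 1 library from each of 2 pups, so there is 1 group with 2 replicates and no treatment, genotype or age to compare. Replicate 1 is pup 6 and replicate 2 is pup 7, and both are listed under the same C57/Bl6 mother, aged 6 months and 10 days. Each library was made from 13 pg of total RNA, about the content of 1 cell, by a full-length complementary-DNA amplification of the Smart-seq kind. The expected counts on mouse genes summed to 25999043 in replicate 1 and 31902773 in replicate 2. Levels are given in TPM (transcripts in every 1000000), which divide reads by transcript length and so allow genes to be set against each other. With 2 libraries of 1 group no test was run, and the spread between them mixes differences between pups with the sampling of RNA at this input.

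Replication starts at sites bound by the origin recognition complex (ORC), which with Cdc6 and Cdt1 loads the MCM2-7 ring onto DNA, while geminin (Gmnn) holds Cdt1 in check. Cdc45 and the GINS complex turn the ring into the active helicase. DNA polymerase alpha with primase then lays down primers, the RFC clamp loader places the PCNA ring that tethers polymerases delta and epsilon, RPA coats single-stranded DNA, and Fen1 and Lig1 finish the lagging strand. In the thymus of a newborn, T-cell precursors divide extensively, and genes of this machinery are known as targets of the E2F transcription factors.

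The labelled tissue was checked against marker genes. All 6 T-lineage markers had more than 3 counts in both libraries, and their levels summed to 14278 TPM in replicate 1 and 13587 TPM in replicate 2. The 4 markers of double-positive thymocytes (Cd8a, Cd8b1, Rag1 and Cd4) summed to 1284 and 1720 TPM, each higher in replicate 2. The 2 macrophage markers summed to 322 and 530 TPM, with Tyrobp higher in replicate 2 and C1qb in replicate 1. The 5 markers of cycling cells were read in both and summed to 1791 and 1530 TPM, but they differed in direction. Top2a (504 and 170 TPM), Birc5 (492 and 414) and Ccnb2 (458 and 378) were higher in replicate 1. Mki67 (9.86 and 22.0 TPM) and Ccnb1 (327 and 545) were higher in replicate 2. Thymic epithelial markers summed to 2363 and 2564 TPM, with Foxn1, a regulator of that epithelium, at 0 counts in replicate 1. Globin genes summed to 3482 and 9081 TPM, and cardiac muscle genes to 843 and 297 TPM, so the libraries also held transcripts of red cells and of muscle, in different amounts. Their part in the values below was not tested. In whole tissue, fewer cells of a type and less RNA per cell cannot be told apart.

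The promoter sequences of Mcm3, Mcm5, Mcm6 and Mcm7 are printed first because these were read in both pups and hold the letters searched for. Mcm2 was read in both pups too, but its window held none of these letters and is not printed. The windows run from 250 bases before to 50 bases after the start annotated by RefSeq (assembly GRCm38.p6), and 31 of the 39 genes had 1 or more windows in the table. Rfc2, Gins2, Gins1, Gins4, Pole, Gmnn, Prim2 and Mcm4 had no entry. The search was for the E2F-type words TTTCCCGC, TTTGGCGC, TTTCGCGC and TTTGCCGC on both strands. Matches are in capitals, on either strand, and each line reads 5′ to 3′ on the gene's own strand. Mcm3 is at chr1:20820263-20820562 (minus strand), Mcm5 at chr8:75109259-75109558 (plus strand), Mcm6 at chr1:128359656-128359955 (minus strand) and Mcm7 at chr5:138171834-138172133 (minus strand).
Mcm3: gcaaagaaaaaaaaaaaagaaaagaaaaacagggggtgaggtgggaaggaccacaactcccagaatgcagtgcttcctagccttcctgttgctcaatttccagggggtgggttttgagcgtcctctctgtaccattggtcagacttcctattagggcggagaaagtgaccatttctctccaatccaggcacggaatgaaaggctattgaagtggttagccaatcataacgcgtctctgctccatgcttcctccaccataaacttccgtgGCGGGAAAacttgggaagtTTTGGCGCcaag
Mcm5: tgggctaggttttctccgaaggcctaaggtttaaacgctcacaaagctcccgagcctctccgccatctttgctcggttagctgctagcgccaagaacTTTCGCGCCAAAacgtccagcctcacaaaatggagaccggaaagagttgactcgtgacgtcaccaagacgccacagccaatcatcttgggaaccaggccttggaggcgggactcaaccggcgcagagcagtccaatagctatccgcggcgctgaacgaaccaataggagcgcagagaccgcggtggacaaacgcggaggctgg
Mcm6: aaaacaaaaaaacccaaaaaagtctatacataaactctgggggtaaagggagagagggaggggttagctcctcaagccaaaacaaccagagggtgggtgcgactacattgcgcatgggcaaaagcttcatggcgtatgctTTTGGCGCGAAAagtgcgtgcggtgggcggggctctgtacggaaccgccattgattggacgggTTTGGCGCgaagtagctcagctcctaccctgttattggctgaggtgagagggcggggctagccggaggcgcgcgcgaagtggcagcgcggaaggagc
Mcm7: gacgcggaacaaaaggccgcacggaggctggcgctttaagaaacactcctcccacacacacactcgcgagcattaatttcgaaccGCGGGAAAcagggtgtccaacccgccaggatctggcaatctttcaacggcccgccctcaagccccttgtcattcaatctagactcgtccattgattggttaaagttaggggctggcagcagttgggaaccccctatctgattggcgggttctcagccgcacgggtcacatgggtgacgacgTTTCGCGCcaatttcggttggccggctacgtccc
In Mcm6 the matches began 110, 106 and 47 bases before the start, and the first pair overlap. Those of Mcm5, at 153 and 149 bases before the start, overlap too. In Mcm3 both matches lay after the start, by 19 and 38 bases. Mcm7 had 1 match 165 bases before the start and 1 match 16 bases after it. Another Mcm7 window in the table, not printed here, held none of the words.

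Shorter stretches around the match are shown for origin and fork genes outside the MCM ring, to let the words be compared. Orc1 is at chr4:108579407-108579454 (plus strand), Orc3 at chr4:34614956-34615003 (minus strand), Cdc6 at chr11:98907993-98908040 (plus strand), Rfc3 at chr5:151651181-151651238 (minus strand), Pola1 at chrX:93632266-93632313 (minus strand) and Lig1 at chr7:13278832-13278875 (plus strand). The Lig1 match was in its second window, and its first window held none of the words. The Lig1 gene is annotated from chr7:13277283.
Orc1: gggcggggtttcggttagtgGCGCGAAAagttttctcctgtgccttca
Orc3: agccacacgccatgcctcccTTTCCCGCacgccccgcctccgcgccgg
Cdc6: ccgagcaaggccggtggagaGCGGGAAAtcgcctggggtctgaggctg
Rfc3: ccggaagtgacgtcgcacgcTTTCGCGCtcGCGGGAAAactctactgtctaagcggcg
Pola1: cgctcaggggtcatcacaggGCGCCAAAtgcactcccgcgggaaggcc
Lig1: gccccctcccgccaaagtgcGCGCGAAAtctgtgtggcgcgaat
Any of the 4 words was found for 13 of the 31 genes (41.9%). The others with a match were Cdt1, Gins3 and Pold1. Counted by window, 33.3% of the members' 39 windows held a word, against 2.26% of all 32851 promoter windows of the same length. The shorter word CCAAT was found for 21 of the 31 genes, or 67.7%, against 41.1% of all genes in the table. The words TTTGAA and TTCGAA, the core of a cell-cycle homology region, were found for 7 of the 31 (22.6%), close to the 21.7% of all genes. A match here is a run of letters and not a measured binding site. Of the 13 genes with an E2F-type word, 10 had more than 3 counts in both libraries, as did 12 of the 18 without one.

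Most of the replication genes were read in both pups. With 1 or more counts as the criterion, 28 of the 39 (71.8%) were read in both libraries, against 32.1% of 21474 protein-coding genes. A count of 3 was taken as the floor, the level that a count of 0 still allows, and floors and intervals here cover counting error only. Above that floor in both libraries were 24 genes (61.5%), against 27% of protein-coding genes. Among the protein-coding genes with a read in either library, that share was 52.6%. Replicate 1 alone was above the floor for 6 genes, which are Gmnn, Cdc45, Gins2, Gins3, Rfc5 and Pold2. Replicate 2 alone was above it for another 6, which are Mcm10, Orc2, Orc5, Cdc6, Rfc2 and Gins4. Orc1, Gins1 and Pole had 3 or fewer counts in both. The summed level of all 39 was 4104 TPM in replicate 1 and 2996 TPM in replicate 2 (3550 ± 783, SD, n = 2).

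**Figure D1:**
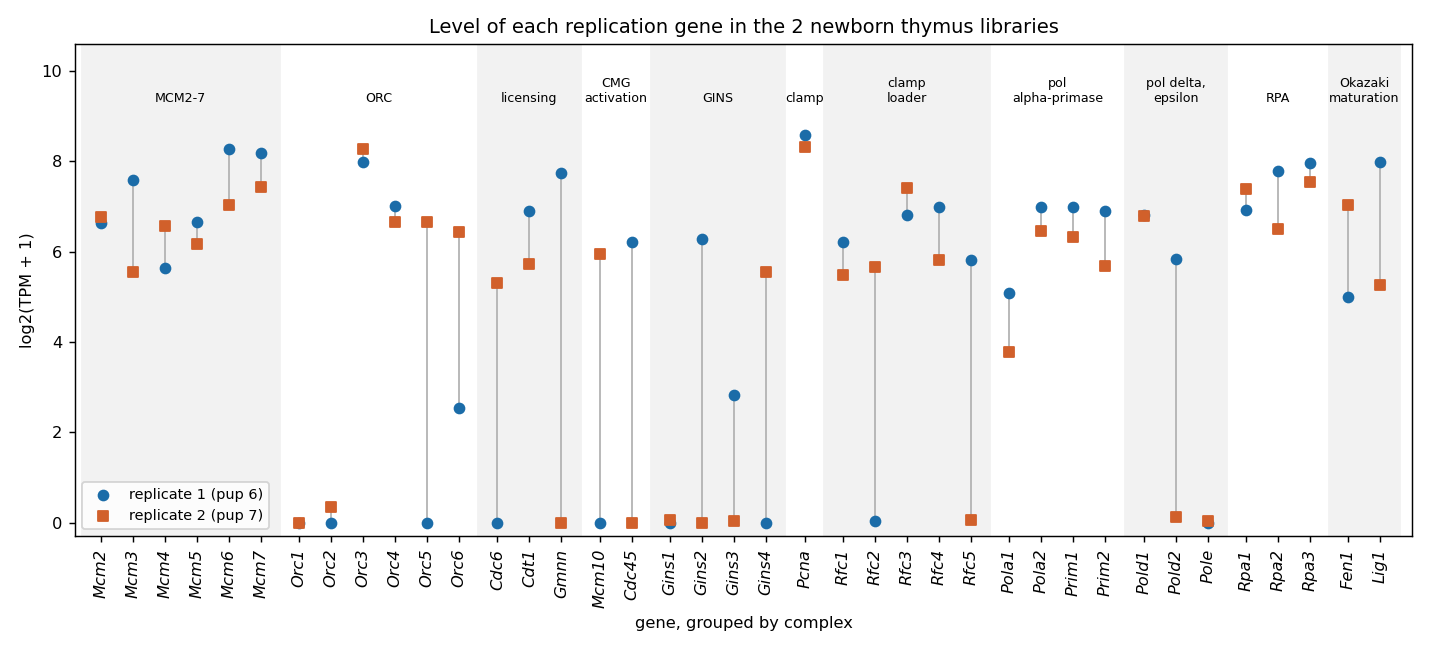
Level of each of the 39 genes in the 2 libraries, as log2 of TPM plus 1, grouped by complex, with a line joining the circle of replicate 1 to the square of replicate 2. Points of the same gene lie close together for Pcna, Mcm2, Orc4 and Pold1, and the 12 genes above 3 counts in one library alone have their other point at or near 0.

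The origin recognition complex was read as an uneven set. Orc3, a core subunit (chr4:34570796-34614944, minus strand), was its highest member with 251 TPM in replicate 1 and 308 TPM in replicate 2 (280 ± 40.4, SD, n = 2). Orc4, another core subunit, followed with 128 and 99.6 TPM. Orc3 lay above Orc4 in each pup, with no overlap of their ranges. Orc5 had 0 counts in replicate 1 and 4558 in replicate 2 (99.5 TPM). Orc6, the smallest subunit, had 140 counts in replicate 1 and 3052 in replicate 2, or 4.81 and 85.0 TPM, a ratio of 17.8 once counts were scaled to library size (95% counting interval 15.0 to 21.2). Orc2 had 0 and 22 counts. Orc1, the ATPase subunit that comes and goes with the cell cycle, had 0 counts in both. So 3 of the 6 subunits were above the floor in both pups, and the subunits that a working complex holds in equal number were read anywhere from 0 to 308 TPM.

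In each library Orc3 made up the larger part of the complex's transcripts, with 65.5% of the summed TPM in replicate 1 and 52.0% in replicate 2. That place depends on which transcripts are counted. Orc3's main transcript was the protein-coding Orc3-201 in replicate 1, with 46.1% of the gene's transcripts, and the non-coding Orc3-210 in replicate 2, with 25.9%. In replicate 2 the coding Orc3-202 was close behind at 22.1%. By expected counts Orc3-202 was the largest form there, with 3417 against 1239 for Orc3-210. Protein-coding transcripts held 81.7% of Orc3 in replicate 1 and 24.3% in replicate 2. With only protein-coding transcripts counted, Orc5 was the highest subunit of replicate 2. Orc3 was higher in replicate 2 by TPM and lower there when libraries were scaled by the edgeR or DESeq2 factors, so no direction between the pups is given for it.

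The loading factors were also split between pups. Cdt1, which brings the MCM ring to the origin, had 118 and 51.8 TPM (85.1 ± 47.0, SD, n = 2). Cdc6, the ATPase that joins the origin complex for loading, had 0 counts in replicate 1 and 2349 in replicate 2 (38.8 TPM), at least 638-fold higher in replicate 2 after that scaling. Geminin, the inhibitor of Cdt1, ran the other way with 3317 counts in replicate 1 (214 TPM) and 0 in replicate 2, at least 1357-fold higher in replicate 1. Geminin was thus above Cdt1 in one pup and unread in the other. Of these 3 genes only Cdt1 can be given a level from both.

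The MCM2-7 ring was the most completely read of the larger complexes. All 6 subunits were above the floor in both pups, with 2570 to 17814 counts each. Mcm6 had 311 and 131 TPM, and Mcm7 had 289 and 171 TPM. Those 2 subunits were the highest in both libraries. Mcm2 had 98.0 and 109 TPM, the closest pair of the ring. Mcm5 had 101 and 71.5 TPM, and Mcm4 had 49.2 and 94.5 TPM. Mcm4 was the lowest subunit of replicate 1 but not of replicate 2. Mcm3 was the least repeatable, with 192 TPM in replicate 1, below only Mcm6 and Mcm7, and 45.6 TPM in replicate 2, the last of the 6, a ratio of 4.20.

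Averaged over pups, the 6 subunits ran from 230 ± 83.3 TPM for Mcm7 (SD, n = 2) to 71.8 ± 32.0 TPM for Mcm4, a span of 3.20. Within one library the span was wider, 6.32 in replicate 1 and 3.76 in replicate 2. Of the 15 pairs of subunits, 7 had ranges that did not overlap between the pups. In those 7, Mcm7 and Mcm6 each lay above Mcm2, Mcm4 and Mcm5, and Mcm2 lay above Mcm4. The order of Mcm7 and Mcm6 differed between the pups. Mcm7 kept nearly the same part of the ring's transcripts, 27.8% in replicate 1 and 27.5% in replicate 2. Mcm6 had 29.9% and 21%. When counts were divided instead by the length of the longest coding transcript, Mcm7 was highest in both libraries and Mcm6 dropped below Mcm2 and Mcm4 in replicate 2, so the place of Mcm6 rests on how its reads were shared among transcripts. In assembly GRCm38, Mcm6 is at chr1:128331590-128359664 and Mcm7 at chr5:138164583-138172422, both on the minus strand. Mcm7 holds the microRNA genes Mir25 and Mir93, each at 0 counts. The labels give a minimum RNA size of 200 bases, so these counts say nothing about the level of the microRNAs.

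**Figure D2:**
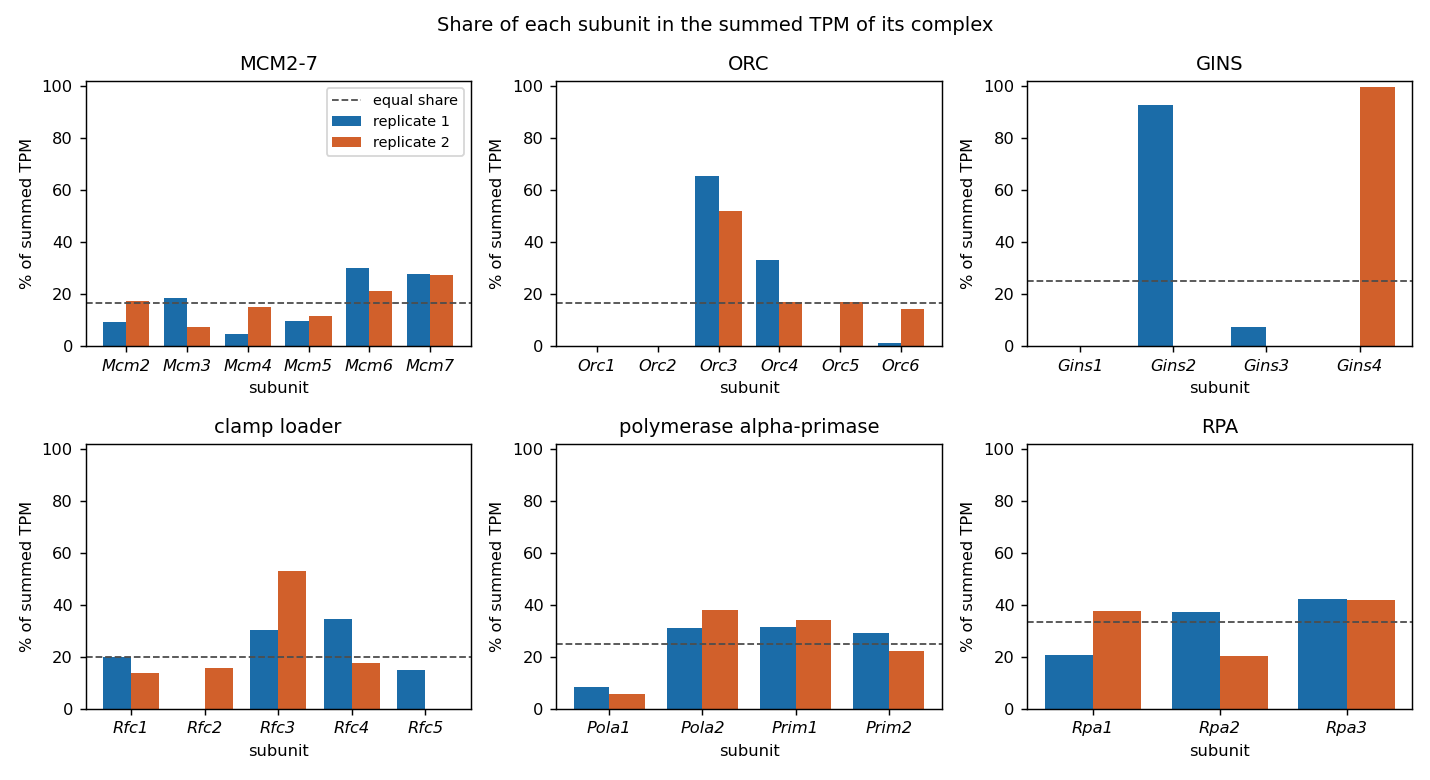
Share of each complex's summed TPM held by each subunit, as a percent, in replicate 1 and replicate 2, for 6 complexes, with the equal share as a dashed line. Mcm7 (27.8% and 27.5%) and Rpa3 (42.1% and 42.0%) hold nearly the same share in both pups, while Gins2 (92.7% and 0%) and Gins4 (0% and 99.9%) exchange places.

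The factors that turn the ring into the active helicase were split between the pups. Cdc45, which binds the side of the MCM ring, had 2765 counts in replicate 1 (73.6 TPM) and 0 in replicate 2. Mcm10, which acts as the helicase starts to unwind, had 0 counts in replicate 1 and 4497 in replicate 2 (60.5 TPM). The fold was at least 1131 for Cdc45 and at least 1222 for Mcm10, in opposite directions. In the 4-subunit GINS complex, Gins2 had 1405 counts in replicate 1 and 0 in replicate 2, and Gins4 had 0 and 1346. Gins3 had 287 counts and 1 count, a scaled ratio of 352 (95% counting interval 62.7 to 13958). Gins1 had 0 and 1. None of the 4 GINS genes and neither Cdc45 nor Mcm10 was above the floor in both. The sum of the GINS subunits, 83.3 and 46.1 TPM, therefore came from different genes in each pup.

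GINS had the lowest mean level per subunit of the 11 sets in both libraries, with 20.8 and 11.5 TPM. That of MCM2-7 was 173 and 104 TPM. Part of the reading of Gins2 is uncertain, because 77.0% of its TPM in replicate 1 was assigned to Gins2-204, a short form with a retained intron. By expected counts the coding Gins2-201 was larger there, with 844 against 500. In addition 70.3% of the 50-base stretches of Gins2 also occur in Gse1, an overlapping gene on the other strand.

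Pcna, the sliding clamp, was the highest of the 39 genes. It had 380.5 TPM in replicate 1 and 318 TPM in replicate 2 (349 ± 44.2, SD, n = 2), from 10033 and 8822 expected counts, and ranked 418th of 21474 protein-coding genes by mean TPM. The gene is at chr2:132249162-132253314 on the minus strand. The coding form Pcna-201 held 85.8% of its transcripts in replicate 1 and 68.8% in replicate 2. Its pseudogene Pcna-ps2 shares 31.8% of Pcna's 50-base stretches and was given 109.5 and 84.8 expected counts.

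Of the 5 subunits of the RFC clamp loader, 3 were read above the floor in both pups. Rfc3 had 111 and 169 TPM, Rfc4 had 127 and 55.5 TPM, and Rfc1, the large subunit, had 73.2 and 43.6 TPM. Rfc4 was the highest in replicate 1 and Rfc3 in replicate 2. The remaining small subunits exchanged places between pups. Rfc2 had 1 count in replicate 1 and 1631 in replicate 2, a scaled ratio of 1329 (95% counting interval 238 to 52532). Rfc5 had 3035 counts in replicate 1 and 1 in replicate 2, a ratio of 3724 (668 to 147145). Read together, the summed level of the loader was 366 and 318 TPM and differed by 1.15-fold, far less than its members.

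Polymerase alpha-primase was read in full, and all 4 of its subunits were higher in replicate 1. Pola2, the B subunit, had 125 and 87.4 TPM. Prim1, the catalytic primase subunit, had 126 and 79.0 TPM, and Prim2, the large primase subunit, had 118 and 50.8 TPM. Pola1, the catalytic polymerase, was the lowest with 33.1 and 12.8 TPM (22.9 ± 14.4, SD, n = 2). Pola1 held 8.22% of the complex's summed TPM in replicate 1 and 5.55% in replicate 2, where equal shares would be 25%. Each of the other subunits lay above Pola1 with no overlap between pups. The remaining 3 pairs overlapped. In counts Pola1 was not far below, with 3547 and 1510 against 4352 and 2695 for Prim1. Its transcript is the longest of the set at 5346 bases, against 1583 to 2424 for the others, and the level divides by that length. It was last in both pups under each alternative computed. The 4 ratios between pups ran from -1.31 to -0.51 on the log2 scale, and all 4 stayed below 0 with the edgeR and DESeq2 factors.

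The replicative polymerases were read only in part. Pold1, the catalytic subunit of polymerase delta, had 111 and 109 TPM, the closest pair of values among the 24 genes above the floor in both pups. Its counts were less alike, at 1950 and 3435. By TPM, few of its transcripts were assigned to coding forms, 13.1% in replicate 1 and 7.96% in replicate 2. The short retained-intron form Pold1-209 was the largest single one in both. By expected counts the largest was the coding Pold1-201 in replicate 1, with 998 against 416 for Pold1-209. In replicate 2 it was Pold1-208, a form not typed as coding, with 1806. Pold2, the accessory subunit of delta, had 1447 counts in replicate 1 and 1 in replicate 2. Pole, the catalytic subunit of polymerase epsilon on the leading strand, had 0 and 1 counts. The level of Pole was therefore at the floor in both libraries and no fold can be given for it.

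RPA was read in all 3 subunits in both pups, at similar mean levels. Rpa3, the smallest subunit, had 249 and 185 TPM, Rpa2 had 220 and 89.4 TPM, and Rpa1, the large DNA-binding subunit, had 121 and 167 TPM. Averaged over pups they ran from 144 to 217 TPM, a span of 1.51, which became 3.69 when counts were divided by the length of the longest coding transcript. In single libraries the span was 2.05 and 2.07, and the low subunit was Rpa1 in replicate 1 and Rpa2 in replicate 2. Rpa3 was highest in both, with 42.1% and 42.0% of the summed TPM, and it did not overlap with Rpa1. Rpa3 has a short transcript, and by counts it was the lowest of the 3 in both pups, with 2902 and 2445.

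The lagging-strand enzymes moved in opposite directions between the pups. Fen1, the flap nuclease, had 30.7 TPM in replicate 1 and 130 TPM in replicate 2. Lig1, the ligase that seals Okazaki fragments, had 253 and 37.6 TPM. Lig1 was thus 8.22 times Fen1 in one pup and 0.290 times Fen1 in the other. For Lig1 the transcript assignment changed as well, since coding transcripts held 70.0% of it in replicate 1 and 0.965% in replicate 2, where 96.1% went to the retained-intron form Lig1-204. For Fen1, 80.1% of the 50-base stretches also occur in the gene Gm10143, which was given 2.98 and 0 expected counts.

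Across the 11 sets, 4 kept their places by mean level per subunit. The clamp was first, RPA next and MCM2-7 after it in each library, and GINS was last in each. The other sets changed places. The highest subunit was the same in both pups in 2 of 6 complexes (MCM2-7, ORC, GINS, the clamp loader, polymerase alpha-primase and RPA), with Orc3 in ORC and Rpa3 in RPA. With the longest coding transcript as the length it was the same in 4 of the 6, adding Mcm7 and Rfc3.

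The ratio between the pups was then described for genes that reached 100 expected counts on average, as log2 of TPM plus 1 in replicate 2 over that in replicate 1. Of the 39 genes, 35 met that minimum, and Orc1, Orc2, Gins1 and Pole did not. A difference of 4-fold or more was found for 15 of the 35 (42.9%), against 50.9% of all 9341 genes above the minimum. At 2-fold or more there were 21, against 67.7% of all genes, and at 8-fold or more 11, against 41%. Higher in replicate 1 by that fold were 8, beside 21.5% of all genes, and higher in replicate 2 were 7, beside 29.4%. With 3 or fewer counts in one library and a mean of 100 or more there were 11 of the 35 (31.4%), against 35.1% of all genes. These shares of the members lie near those of all genes or a little under them. Of the 15 genes, 11 owed their fold to a library at or below the floor. The other 4 were Mcm3, Lig1, Orc6 and Fen1.

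Of the 35, 23 were higher in replicate 1 by any amount, against 47% of all genes, and 12 were higher in replicate 2. Their median log2 ratio was -0.51, beside 0.17 for all genes. The 24 genes above the floor in both gave a median of -0.50 beside -0.03, with 17 higher in replicate 1. Their median size of difference, without sign, was 0.74 on the log2 scale beside 1.01 for all genes so read. At 4-fold or more were 4 of these 24, beside 25.4% of 6064 genes. Neither comparison matched genes by count. By range of mean count, with genes at the floor included, the median size was 5.62 for members beside 3.79 for all genes (100 to 1000). It was 3.89 beside 2.05 (1000 to 3000), 0.80 beside 0.86 (3000 to 10000) and 0.75 beside 0.46 (10000 to 30000). The members were thus not shown to be more repeatable than other genes of like counts. MCM2-7, the licensing genes, polymerase alpha-primase, RPA and the lagging-strand pair all had the larger sum in replicate 1. ORC alone among the 11 sets had the larger sum in replicate 2, with 384 and 593 TPM, and Orc5 and Orc6, near or at 0 in replicate 1, made up most of that difference.

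**Figure D3:**
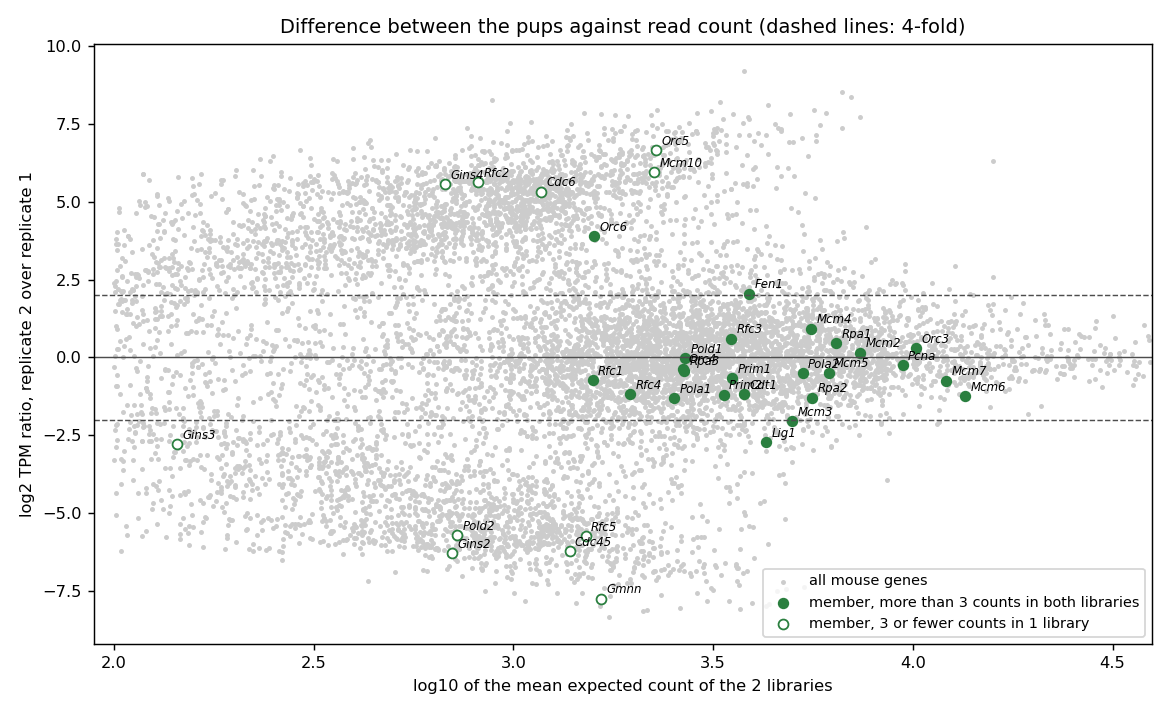
Log2 ratio of TPM plus 1, replicate 2 over replicate 1, against log10 of the mean expected count, for genes that reached 100 counts on average, with all mouse genes in grey, members above 3 counts in both libraries as filled points and members at 3 or fewer in one as open points. The open points lie beyond the dashed 4-fold lines, from -7.75 for Gmnn to 6.65 for Orc5, and the filled points lie between -2.72 for Lig1 and 3.89 for Orc6.

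The spread between pups followed the number of counts. Among all genes with a mean of 100 to 1000 counts, 64.5% had 3 or fewer in one library, and all 5 members in that range did. From 1000 to 3000 counts the share was 29.5% of all genes and 6 of 13 members. From 3000 to 10000 counts it was 4.16% of all genes and 0 of 14 members. Above that, up to 30000 counts, it was 0.270% and 0 of 3. The same was seen by level among protein-coding genes. With a mean between 25 and 50 TPM, 36.6% of such genes and 6 of 7 members were at the floor in one library. Between 50 and 100 TPM these were 13.4% of genes and 0 of 7 members. Between 100 and 200 TPM it was 3.34% of genes and 1 of 11 members, the 1 being Gmnn. Cdc45 lies in the count range with 29.5% of all genes at 3 or fewer counts in one library, and Gins4 in that with 64.5%. A zero lowers the mean that sets the range, so the trend with counts and level is partly built in. A zero for such a gene is given as not read rather than as not expressed, and its cause was not tested.

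Levels were also given for each transcript form of a gene, and the main transcript is the form with the largest share of TPM. Of the 24 genes above the floor in both pups, 20 have more than 1 annotated transcript, and 15 of those 20 had the same main transcript in both. The main transcript differed for Orc3, Orc6, Pola2, Fen1 and Lig1. For Orc6, Pola2 and Fen1 both forms were coding, so the exchange did not alter the coding share. Coding transcripts held 90% or more of the gene in both pups for 12 of 23 genes, which leaves out Rfc1, whose transcripts could not be typed. Mcm2, Mcm4, Mcm5 and Cdt1 have a single transcript, so their levels do not depend on this division. Retained-intron forms took over 20% in both libraries for Mcm3, Rpa1, Pold1 and Lig1. In Mcm3 they held 44.7% in replicate 1 and 20.8% in replicate 2, in Rpa1 30.4% and 40.2%, and in Pold1 86.9% and 69.7%. These shares are of TPM, so a short form holds a larger share than its part of the reads. They rest on the authors' estimates of how reads divide among transcripts that overlap. They were computed for the members alone, so they cannot be set against all genes or called a trait of replication genes.

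**Figure D4:**
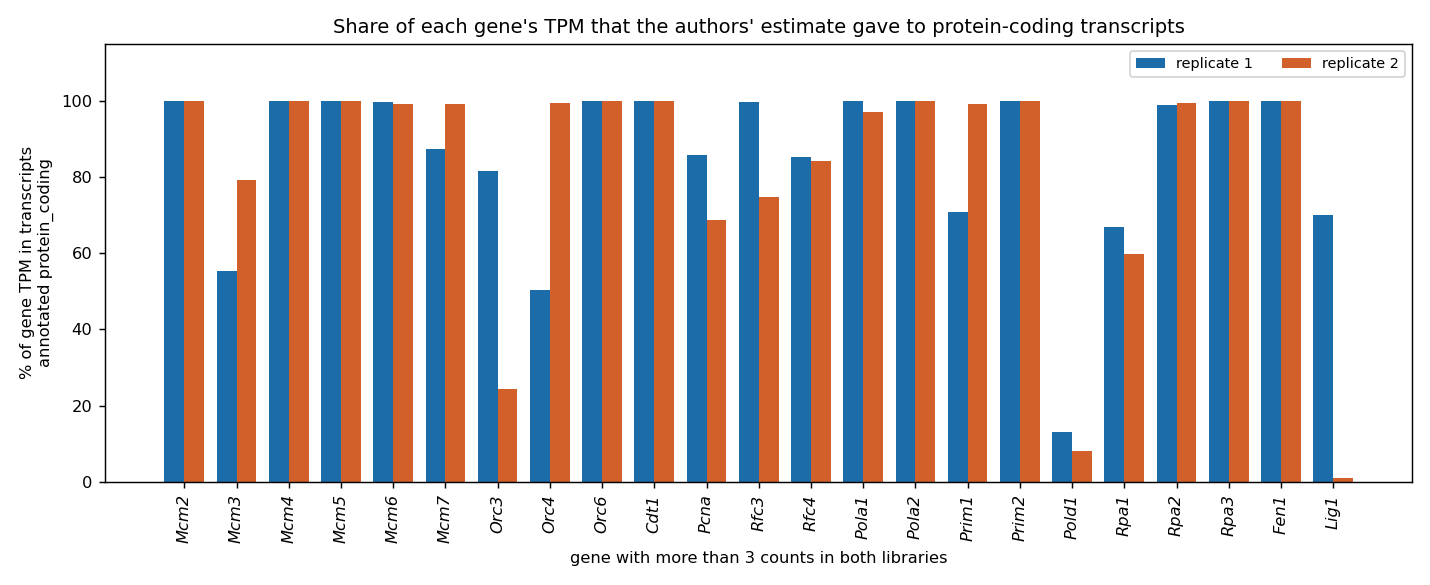
Percent of each gene's transcripts assigned to protein-coding forms in replicate 1 and replicate 2, for the genes above 3 counts in both libraries. Both bars reach 90% or more for 12 of 23 genes, while Pold1 is low in both pups and Lig1 and Orc3 are low in replicate 2.

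Neighbouring genes were listed because several members start back to back with another gene or overlap one at the start. The strand used in counting is not given in the sources used here. An annotated start on the other strand lay within 1000 bases for 19 of the 39, and 12 of these had a protein-coding partner. Ufd1, Vps35, Mbd5 and Tmem258, named below, start inside the paired member, and their exons overlap it on the other strand. Orc1 and Prpf38a start 87 bases apart, yet Prpf38a, a splicing factor, had 200 and 95 TPM where Orc1 had none. Fen1 and Tmem258 start 155 bases apart, and Tmem258 had 329 and 347 TPM. Rars2, which starts 13 bases from Orc3, had 0 and 449 counts, although Orc3 was among the highest of the members. Cdc45 and Ufd1, 208 bases apart, gave 2765 and 0 counts for the first and 6944 and 720 for the second. A shared start region thus went with unlike levels for Orc1 and for Orc3. Other pairs changed the same way between the pups. Vps35, which starts near Orc6, had 43.4 and 93.5 TPM and was higher in replicate 2, as was Orc6. Mbd5, which starts near Orc4, had 65.5 and 26.9 TPM and was higher in replicate 1, as was Orc4. With only protein-coding transcripts counted, however, Orc4 was higher in replicate 2, with 64.4 and 99.1 TPM. Umad1, near Rpa3, had 11.4 and 18.2 TPM and ran opposite to Rpa3. Abhd12, near Gins1, had 0 and 6688 counts where Gins1 had 0 and 1.

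Exons of 15 members are overlapped by another gene, and for 9 members 10% or more of the 50-base stretches also occur in another gene. Beside those of Fen1, Gins2 and Pcna, these are Mcm7 with Gm5487 (26.0%), Orc2 with Nif3l1 (21.6%), Rfc2 with Lat2 (18.3%), Rpa3 with Gm6195 (16.6%), Rfc5 with Wsb2 (16.4%) and Rfc4 with Eif4a2 (11.1%). For these 9 genes, reads could be divided between copies or neighbours. The deposited posterior SD of the count, which measures how uncertain that division was, was small beside the counts. It was at most 9.65 counts (Pcna in replicate 1) and was 0 in both libraries for Mcm7, Orc2 and Rfc2. Gm5487 was not among the measured genes. For Rfc5 the partner Wsb2 had 10 and 1961 counts where Rfc5 had 3035 and 1, so the pair ran in opposite directions.

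A list of 40 further replication genes outside the members, covering firing kinases, other polymerase subunits, fork protection, histone chaperones and RNase H2, was read in a like way. Above the floor in both pups were 24 of the 40, in replicate 1 alone 8 and in replicate 2 alone 2. With a mean of 100 or more counts there were 33, of which 13 (39.4%) differed 4-fold or more, against 50.9% of all genes. Of the 33, 8 were higher by that fold in replicate 1, beside 21.5% of all genes, and 5 in replicate 2, beside 29.4%. Higher in replicate 1 by any amount were 23 of the 33, against 47% of all genes, with a median log2 ratio of -0.87. For the 24 above the floor in both pups the median was -0.43, with 16 of 24 higher in replicate 1. Their sums were 3687 and 2370 TPM. The highest were Tonsl, which takes part in repair at stalled forks, with 570 and 255 TPM, Top2a, which untangles replicated DNA, with 504 and 170 TPM, and Tipin, of the fork protection complex, with 369 and 202 TPM.

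Other subunits of the polymerases came from this list. For polymerase epsilon, whose catalytic subunit Pole was at the floor, Pole2 had 1600 and 0 counts, Pole3 had 6237 and 2, and Pole4 had 2096 and 1778. Pole4 was thus the 1 of the 4 subunits read well in both pups. For polymerase delta, Pold3 had 94.0 and 110 TPM and Pold4 had 70.1 and 57.5 TPM, so Pold1, Pold3 and Pold4 were read in both while Pold2 was not. Of the genes that fire origins, Cdc7, the kinase of the MCM ring, had 1141 and 0 counts, its partner Dbf4 had 86.0 and 1940, and Ticrr, which helps load Cdc45, had 3108 and 0. Timeless, the partner of Tipin, had 1 and 3537 counts.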

How the data were processed

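Gene and transcript tables were deposited for each of the 2 libraries. Per the file headers, their columns are named as RSEM writes them and hold expected counts, TPM and the percent of a gene's transcripts per form. Aligner: not given in the sources used here. The genome was mm10 with annotation M4 and spike-ins added, per the labels and the deposited notes. Whether counting used strand is not stated either.

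From the deposited TPM, spike-ins and other entries that are not mouse genes were left out and TPM was rescaled to 1000000 over 43346 mouse genes. Names came from GENCODE M21 (GRCm38), which matched 42462 IDs and not the other 884. All deposited entries summed to 27003123 and 32980032 expected counts, and 3 counts equal 0.115 and 0.0940 counts in 1000000 mouse counts. Folds of counts were scaled to the mouse total of each library, with exact 95% intervals. The members were given as a list, and every one was named. The members, the marker lists and the list of further replication genes were chosen with earlier results of these data known. Ratios used log2(TPM + 1), and genes needed a mean of 100 expected counts. Since 1 group of 2 holds no comparison, no p-value was computed, and the labels list 1 donor for both pups, so the spread may be technical in part.

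Alternatives were posterior mean estimates, the TPM denominator, transcript length, coding transcripts alone, the pseudocount, the count minimum, the fold, thinning of the deeper library, edgeR 4.0.16 TMM factors and DESeq2 1.42.0 size factors on expected counts rounded to whole numbers, and each library alone. Scripts ran in Python 3.11.15 with pandas 2.3.3 and in R 4.3.3, and were tested on simulated data.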

Additional observations from a re-analysis of the deposited data

How the results depend on the processing

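Of the 39 members, 12 were above the floor in one library alone, and for these the other library gives no level. Of the values answering a question of the report, 147 moved by less than the spread between the pups, or stayed within 1.5 times for a count, and 18 moved further. For the summed level and the mean levels of complexes, leaving out a replicate cannot move the value beyond that spread. Those entries among the 147 therefore say nothing about stability. Counting only protein-coding transcripts took the mean level per subunit of ORC from 81.4 to 52.8 TPM, GINS from 16.2 to 7.89, the clamp from 349 to 273 and polymerases delta and epsilon from 46.2 to 10.9, and the span of RPA from 1.51 to 2.40. Using the median over subunits gave 47.3 for ORC, 58.4 for the clamp loader (68.4 as mean) and 28.1 for polymerases delta and epsilon. The length of the longest coding transcript gave 25.1 for the latter, spans of 8.31 for the clamp loader (2.40 with the authors' lengths) and 3.69 for RPA, and the same highest subunit in 4 complexes rather than 2. Leaving out a replicate gave spans of 3.76 to 6.32 for MCM2-7, 3.63 to 52.2 for ORC, 1.73 to 3.88 for the clamp loader, 3.82 to 6.84 for polymerase alpha-primase and 2.05 to 2.07 for RPA. The span of ORC is set by Orc6 in replicate 1, and without Orc6 it was 2.46. Requiring more than 3 counts in both libraries left 4 members at 4-fold rather than 15. Those last 2 alternatives were chosen after seeing the data. The median ratio of all genes was 0.17 in TPM, 0.20 with edgeR factors and 0.25 with DESeq2 factors. Of the levels of single members, 252 stayed within the spread and 20 moved, 9 of them with the longest coding length. The 252 include every member level with a replicate left out, which stays within the spread by arithmetic. The order of subunits has no value with a replicate left out, and the coding-only level was not run for Rfc1 and the clamp loader. No paired analysis was possible because there is 1 group.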
